A study of Mus musculus with 12 samples.

Results

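What went on changing in mouse embryonic stem (ES) cells once the first days of the series were over is the question behind setting day 6 against day 2. The comparison uses the 3 libraries of day 6 and the 3 of day 2, 6 of the 12 libraries in the series, and takes every gene with enough counts, 16468 of the 55335 in the table. The other 6 libraries are of days 0 and 4, and they entered the fit so that 1 estimate of spread was shared by the 4 days. The labels call all of them mESC and name no genotype or agent that differs between them. The labels give them the same culture, on gelatin in medium that held leukaemia inhibitory factor (LIF) and a serum replacement, together with irradiated mouse embryonic fibroblasts, which feed the ES cells. What was done to the cells between days 0 and 6 is not said, so day is the only label that separates the groups. Nor do the labels say whether replicates were separate cultures, and the p-values rest on how far these libraries spread, which may be technical variation alone.

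ES cells are derived from the early epiblast and can give rise to all tissues of the embryo. The transcription factors Oct4 (Pou5f1), Sox2 and Nanog hold that state, and LIF, acting through its receptor and the factor Stat3, supports it in culture. When the state is left, genes of the germ layers and of the extraembryonic layers that surround the embryo are switched on in turn. The HoxB genes and enzymes of retinoic acid metabolism are among the known early targets of retinoic acid, while contractile proteins, fibrillar collagens and fetal growth factors are known from later and more differentiated cells. The series title names NuRD, in which a nucleosome-remodelling ATPase works beside histone deacetylases, and CTCF, a DNA-binding protein that shapes chromosome loops with cohesin.

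Levels are given as CPM (a gene's share of the library's counts, on the scale of counts-per-million), scaled between libraries by TMM, a method that assumes most genes do not differ. They are not divided by gene length, so they are compared between days for a gene and not between genes. A fold change is a fitted log2 value ± SE, and a gene was taken as changed when its adjusted p, from the quasi-likelihood test of edgeR and adjusted by Benjamini-Hochberg over all genes tested, was under 0.05. "Rose" and "fell" are used of day 6 against day 2 and only of genes that passed. In a bulk sample, fewer cells of a type and less RNA per cell cannot be told apart.

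By this test 10474 genes changed, 63.6% of those tested. Of them 5337 (32.4%) were higher at day 6 and 5137 (31.2%) lower, and the median log2 value over all genes was 0.00. At least 2-fold changes numbered 1609 higher (9.77%) and 1158 lower (7.03%). The 3 values of each day did not overlap for 10960 genes (66.6%). Total counts ran from 10590457 to 12786886 at day 2 and from 9165606 to 13266962 at day 6, and the first principal component of the 6 libraries, with 85.3% of the variance, separated the days. The second, with 4.29%, separated day 6 replicates 2 and 3. Counts from mitochondrially encoded genes made up 1.38 to 1.45% at day 2 and 1.98 to 2.01% at day 6. The share of Gm42418, whose model lies over ribosomal RNA sequence, was 0.322 to 0.351% at day 2 and 2.64 to 2.92% at day 6. The part of these shares in the results was not tested beyond a fit without both, which gave 5326 genes higher and 5126 lower.

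**Figure D1:**
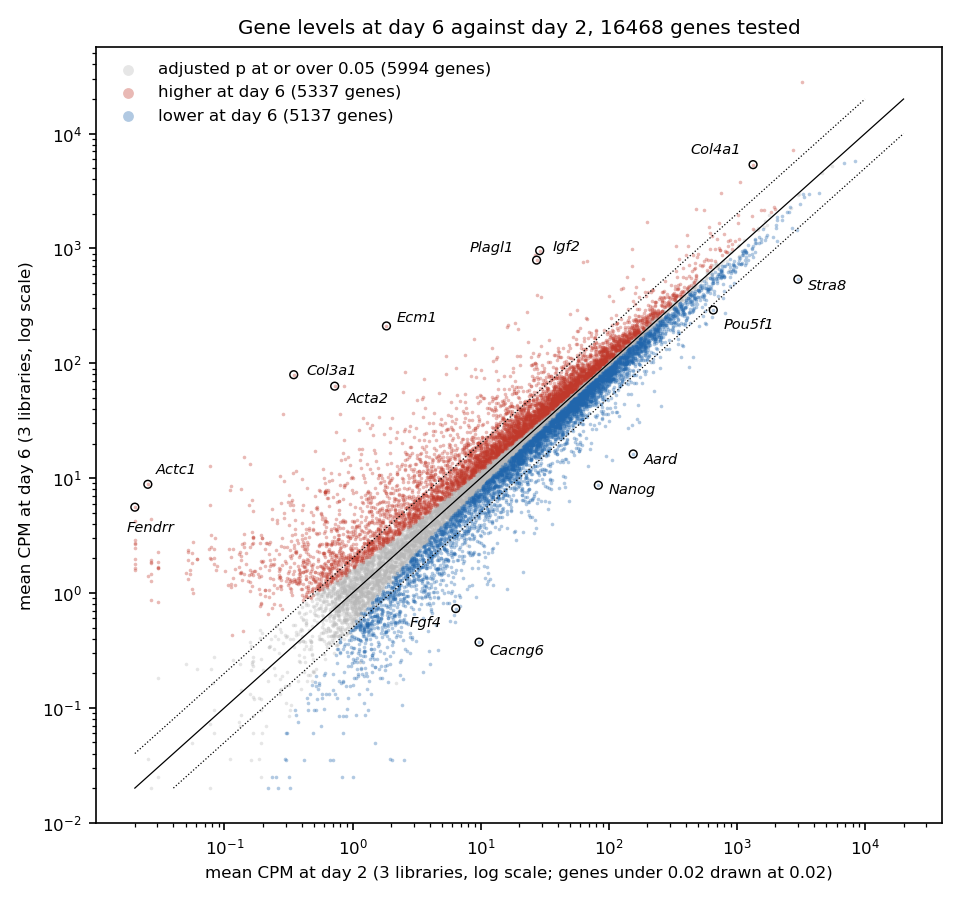
Mean CPM of each tested gene at day 2 (x axis) and day 6 (y axis), 3 libraries a day, on log scales, with genes under 0.02 CPM drawn at 0.02. Red points are the 5337 genes higher at day 6, blue points the 5137 lower and grey points the 5994 that did not pass; the solid line marks equal levels and the dotted lines a 2-fold difference.

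The ES cell markers were still present at day 6 but mostly lower. Pou5f1 (ENSMUSG00000024406.16, chromosome 17, 35506018 to 35510772, GRCm38) was at 658, 660.2 and 645 CPM in the day 2 libraries and 296, 275 and 302 CPM in the day 6 libraries, and the groups did not overlap (log2 -1.17 ± 0.04, adjusted p = 7.69e-24). Nanog (ENSMUSG00000012396.12, chromosome 6, 122707489 to 122714633), a homeobox factor of the epiblast, was at 82.1, 80.5 and 86.2 CPM in the day 2 libraries and 8.3, 10.2 and 7.57 CPM in the day 6 libraries (log2 -3.26 ± 0.08, adjusted p = 4.17e-31). Of the 6 ES markers checked it fell the most, and every day 6 library lay below every day 2 library. Sox2 fell from 181 to 67.7 CPM, Zfp42 fell from 252 to 113 CPM, Esrrb fell from 71.5 to 18 CPM and Dppa5a fell from 561 to 226 CPM. Of 14 core pluripotency genes, 2 rose and 12 fell (median log2 -1.37). Fgf4, the growth factor that ES cells secrete, was among the 12 largest falls in fold of called genes that reached 5 CPM on either day and have no clone-type name, from 6.4 to 0.732 CPM. The largest rises named below were taken by the same limits.

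A pair of core genes went the other way. Tdgf1, the co-receptor of Nodal also called Cripto, was at 12, 12.9 and 11.7 CPM in the day 2 libraries and 48, 52.1 and 51.3 CPM in the day 6 libraries (log2 2.04 ± 0.07, adjusted p = 2.80e-25), so that it rose from a low level. Its level at day 0 was 528 CPM, far above both days (log2 -3.39 ± 0.05 against day 0, adjusted p = 2.18e-38). Day 6 differed from day 0 in 12663 genes, 76.9% of those tested, and shares the day 6 libraries with the main comparison. Lin28a (an RNA-binding protein that blocks let-7 maturation) rose from 84.5 to 125 CPM, and its paralog Lin28b fell by 0.35 on the log2 scale. Among 16 naive pluripotency genes, 2 rose, 12 fell and 2 missed the threshold (median log2 -0.79), and the maternal factor gene Dppa3 was 1 of those that rose, at 3.64, 2.97 and 3.46 CPM in the day 2 libraries and 15, 14 and 15 CPM in the day 6 libraries (log2 2.13 ± 0.13, adjusted p = 1.45e-17). At day 0 Dppa3 was at 16.2 CPM (log2 -0.13 ± 0.10 against day 0, adjusted p = 0.228). Klf4, Klf5 and Tbx3 had small falls of 0.12, 0.15 and 0.24 on the log2 scale. The call of Klf4 was lost without day 2 replicate 3 (adjusted p = 0.257) or day 6 replicate 2 (adjusted p = 0.272), and that of Klf5 without day 2 replicate 2 (adjusted p = 0.0727) or day 6 replicate 1 or 2 (adjusted p = 0.127 and 0.161). The formative and primed list, genes of the epiblast at implantation, had 15 tested members, of which 3 rose, 11 fell and 1 missed the threshold (median log2 -1.31). The Nodal ligand gene was at 13.2, 10.4 and 14.1 CPM in the day 2 libraries and 0.973, 1.3 and 1.26 CPM in the day 6 libraries (log2 -3.43 ± 0.18, adjusted p = 4.19e-19), and its inhibitors fell with it, Lefty1 from 10.6 to 1.7 CPM and Lefty2 from 5.66 to 0.812 CPM. Otx2 fell from 4.21 to 0.674 CPM and Dnmt3b (a de novo DNA methyltransferase) fell from 112 to 45.1 CPM, while Cdh2 (N-cadherin) rose from 12.3 to 25 CPM and Sox11 rose from 24 to 58.4 CPM.

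**Figure D2:**
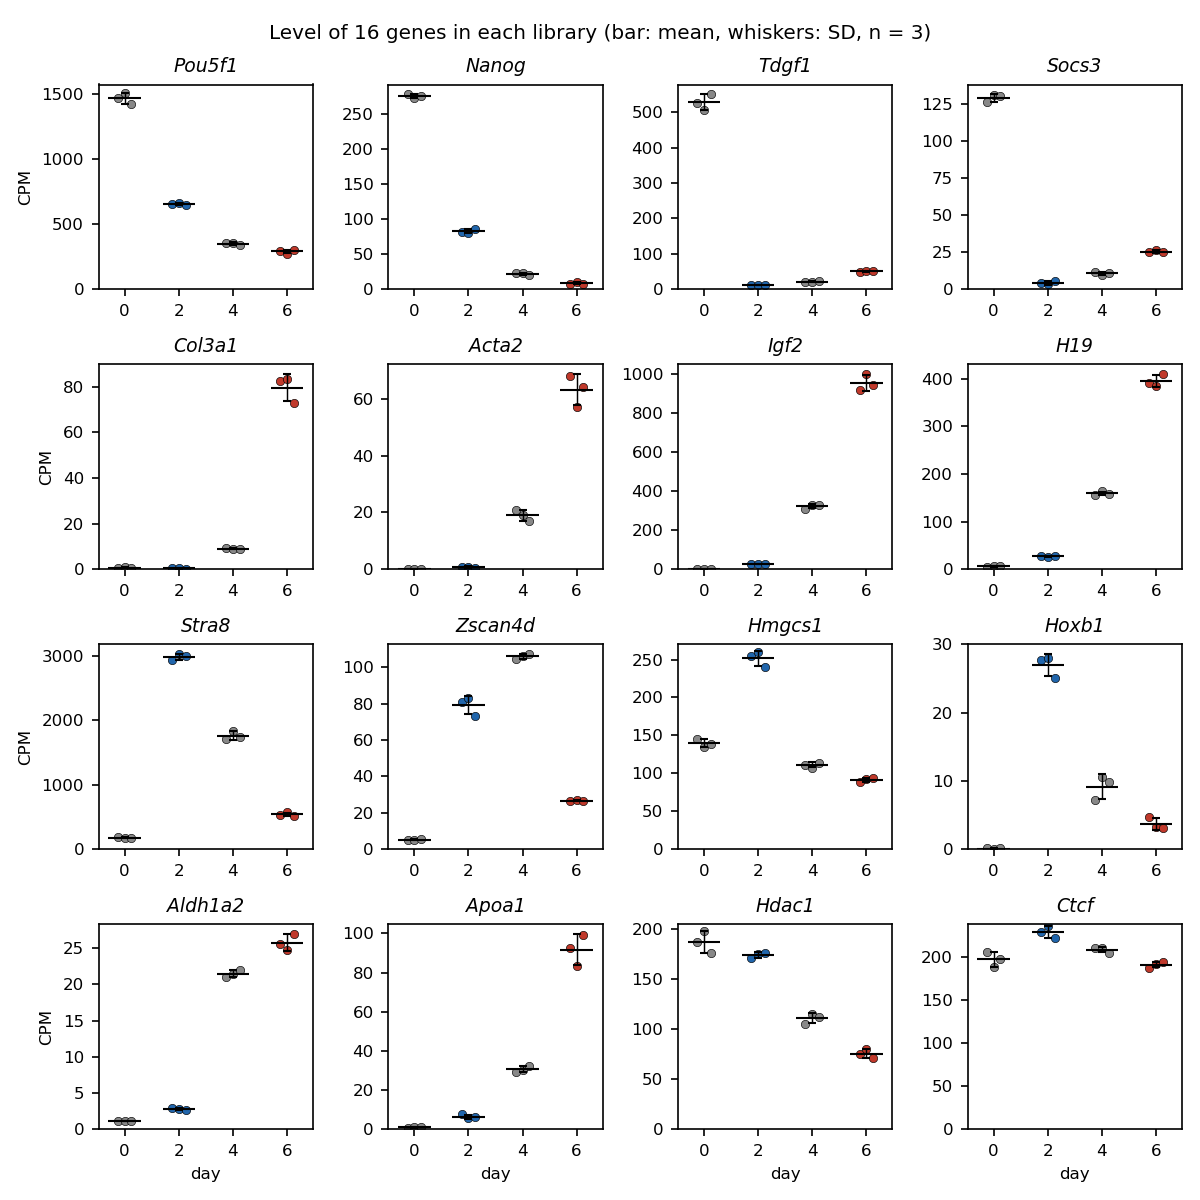
CPM of 16 genes in each of the 12 libraries, by day (x axis), with day 2 in blue, day 6 in red and days 0 and 4 in grey; the horizontal bar is the mean of 3 libraries and the whiskers the SD. Pou5f1, Nanog, Stra8, Hmgcs1, Hoxb1 and Hdac1 were lower at day 6 than at day 2 in every library, Zscan4d was highest at day 4, and Col3a1, Acta2, Igf2, H19 and Apoa1 were higher at day 6 in every library.

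Most genes of the LIF pathway were higher at day 6 than at day 2. Of 15 genes of this pathway, 11 rose and 4 fell (median log2 0.97), where the median over all genes was 0.00. The list stood about as high at day 0, and its median log2 for day 6 against day 0 was 0.09. Stat3 and Bcl3 missed the threshold against day 0 (log2 0.09 and -0.08, adjusted p = 0.0806 and 0.590). Lifr, Il6st, Jak2 and Osmr were above day 0 (log2 0.63, 1.12, 1.95 and 1.88). All 5 genes tested for the receptor chains and signal carriers Lifr, Il6st, Osmr, Jak2 and Stat3 rose. Lifr, the LIF receptor, was at 27.2, 28.4 and 23.9 CPM in the day 2 libraries and 105, 99 and 99.5 CPM in the day 6 libraries (log2 1.93 ± 0.06, adjusted p = 2.90e-26), and the day 6 libraries lay above all others. Stat3 was at 65.9, 64.2 and 61.9 CPM in the day 2 libraries and 125, 118 and 132 CPM in the day 6 libraries (log2 0.97 ± 0.05, adjusted p = 1.10e-19). Il6st (the gp130 chain that pairs with the receptor) rose from 77.5 to 169.6 CPM, Jak2 (a kinase bound to it) rose from 29 to 52.7 CPM, and Osmr (the oncostatin M receptor) rose from 0.266 to 2.2 CPM. The feedback inhibitor Socs3, a direct Stat3 target, was at 4.17, 3.3 and 5.82 CPM in the day 2 libraries and 25.1, 26.4 and 24.9 CPM in the day 6 libraries (log2 2.54 ± 0.11, adjusted p = 1.37e-21). It stayed below its day 0 level of 129 CPM (log2 -2.34 ± 0.07 against day 0, adjusted p = 3.56e-28). Junb rose from 5.05 to 23.4 CPM and Bcl3 rose from 2.22 to 11.2 CPM, and Socs2, which restrains growth hormone signalling, fell, from 14.4 to 3.84 CPM, as did the kinase gene Pim1, from 46.9 to 25.5 CPM.

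Genes of smooth muscle contraction rose almost as a whole. Of 21 tested, 20 rose, none fell and 1 missed the threshold (median log2 1.49), where 32.4% of all genes rose. Acta2 (ENSMUSG00000035783.9, chromosome 19, 34241090 to 34255590), the actin of smooth muscle and myofibroblasts, was at 0.758, 0.965 and 0.455 CPM in the day 2 libraries and 68, 57.2 and 64.3 CPM in the day 6 libraries (log2 6.4 ± 0.14, adjusted p = 1.44e-31), 84.7-fold higher. Its day 2 libraries were near 0 and did not overlap with day 6. Tagln (transgelin, an actin-bundling protein) was at 8.94, 10.4 and 7.46 CPM in the day 2 libraries and 159, 165 and 160.2 CPM in the day 6 libraries (log2 4.17 ± 0.07, adjusted p = 5.09e-35), and the myosin light chain gene Myl9 at 5.84, 5.31 and 5.0 CPM in the day 2 libraries and 120.5, 112 and 112 CPM in the day 6 libraries (log2 4.41 ± 0.08, adjusted p = 2.30e-34). For both genes every day 6 library lay above every day 2 library. The tropomyosin gene Tpm1, abundant on both days, was among the 8 largest gains in CPM, at 557, 599.8 and 491 CPM in the day 2 libraries and 2099.6, 2176 and 2214 CPM in the day 6 libraries. Cnn2 (a calponin) rose from 13.2 to 85 CPM, Mylk (myosin light chain kinase) rose from 3.12 to 13.3 CPM, Cnn1 rose from 4.33 to 16.2 CPM, Des (desmin) rose from 12.6 to 49.3 CPM and Myh11 rose from 3.7 to 13.4 CPM. Srf, serum response factor, which drives these genes in muscle, rose from 57.9 to 107 CPM, while its partner gene Mrtfa was at 40.5 and 42.9 CPM (adjusted p = 0.273). Another partner, Myocd (myocardin), had too few counts to be tested.

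Serum response factor is known to bind the CArG box, CC and GG with 6 letters of A or T between them, in promoters of contractile genes. RefSeq promoters (GRCm38.p6, 250 bases before the start of transcription) were found for 19 of the 21 tested smooth muscle genes and hold the box, on either strand, in 4 of them (Cnn2, Myl9, Srf and Vcl). That is 21.1%, against 1.44% of the promoters of 11405 tested genes and 1.47% of all 32851 promoters. The 4 promoters below are shown because they hold the motif and belong to genes that rose, with the box, or a form with 1 of its inner 6 letters changed, in capitals. The changed form was added after the first search, and with it Acta2 and Mrtfa also match (6 of 19, 31.6%, against 9.64% of tested genes). The 2 matches of Acta2 begin 84 and 34 bases before the start.
Acta2 (chr19:34255374-34255623, minus strand): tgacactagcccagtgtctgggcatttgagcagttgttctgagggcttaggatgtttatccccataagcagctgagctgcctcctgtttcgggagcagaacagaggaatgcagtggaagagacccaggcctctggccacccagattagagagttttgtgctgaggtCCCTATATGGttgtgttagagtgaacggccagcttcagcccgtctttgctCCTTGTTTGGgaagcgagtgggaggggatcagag
Myl9 (chr2:156775214-156775463, plus strand): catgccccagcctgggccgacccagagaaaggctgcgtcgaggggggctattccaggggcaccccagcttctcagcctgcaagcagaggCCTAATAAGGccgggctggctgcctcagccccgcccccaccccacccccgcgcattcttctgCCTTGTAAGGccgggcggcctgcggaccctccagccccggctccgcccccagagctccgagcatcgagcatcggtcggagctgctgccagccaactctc
Vcl (chr14:20929148-20929397, plus strand): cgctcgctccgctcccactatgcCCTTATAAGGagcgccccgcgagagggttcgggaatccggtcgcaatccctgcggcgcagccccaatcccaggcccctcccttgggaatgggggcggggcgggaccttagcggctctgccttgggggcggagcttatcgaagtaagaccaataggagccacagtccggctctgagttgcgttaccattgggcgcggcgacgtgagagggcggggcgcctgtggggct
Actc1 (chr2:114052876-114053125, minus strand): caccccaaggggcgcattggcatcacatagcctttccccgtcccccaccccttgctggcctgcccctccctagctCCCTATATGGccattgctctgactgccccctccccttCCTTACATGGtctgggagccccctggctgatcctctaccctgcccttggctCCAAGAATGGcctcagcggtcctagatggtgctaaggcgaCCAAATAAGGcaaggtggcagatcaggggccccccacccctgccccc
A match is a description of the letters and not a site shown to be bound. Vinculin (Vcl), which ties actin to adhesion sites, rose from 156 to 188 CPM, by far the smallest change of these 4.

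Striated muscle genes moved both ways. Of 15 tested, 8 rose, 3 fell and 4 missed the threshold (median log2 0.26). Actc1, cardiac actin, had 1 count over the day 2 libraries and was at 9.58, 8.21 and 8.72 CPM in the day 6 libraries, which gives a day 6 to day 2 ratio of CPM of 327 (58.2 to 12966, 95% interval from counting). The counting intervals and floors given here cover counting error only. Its promoter holds 4 matches, forms with a changed letter included, and 4 of the 15 striated muscle promoters hold the strict box (26.7%). Tnni2, a troponin of fast muscle, was among the 12 largest rises, at 0.0758, 0.0804 and 0.273 CPM in the day 2 libraries and 14.8, 17.1 and 13.8 CPM in the day 6 libraries (log2 6.67 ± 0.28, adjusted p = 1.49e-22). Acta1 (skeletal actin) rose from 0.780 to 10.9 CPM, Tnni1 rose from 0.255 to 4.34 CPM and Myl3 rose from 0.971 to 10.1 CPM, whereas Myh6 (a cardiac myosin) fell from 5.2 to 1.5 CPM, Ttn (titin) fell from 6.78 to 2.11 CPM and Tnnt1 fell from 24.8 to 9.62 CPM. Of the 24 genes written for this list, Myod1, Myog and Tnnt2 were among those not tested.

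Matrix genes were a second large group of rises. Collagens had 19 rises and 4 falls among 31 (median log2 0.92), and the other matrix genes 25 and 5 among 39 (median log2 1.06). Col3a1 (ENSMUSG00000026043.18, chromosome 1, 45311538 to 45349706), a fibrillar collagen of soft connective tissue, was at 0.379, 0.482 and 0.182 CPM in the day 2 libraries and 82.4, 83.5 and 72.6 CPM in the day 6 libraries (log2 7.76 ± 0.15, adjusted p = 3.92e-34). It was near 0 at day 2, stood at 8.98 CPM at day 4, and no library overlapped between days 2 and 6. Col1a1, of the main collagen of bone and skin, was at 2.5, 3.05 and 3.36 CPM in the day 2 libraries and 35.4, 39.4 and 35.6 CPM in the day 6 libraries (log2 3.63 ± 0.14, adjusted p = 3.85e-20), and Col1a2 rose from 12.9 to 49.8 CPM. The basement membrane collagens Col4a1 and Col4a2, already abundant, were among the largest gains in CPM. Col4a1 was at 1365, 1346 and 1303 CPM in the day 2 libraries and 5247, 5645 and 5204 CPM in the day 6 libraries (log2 2.0 ± 0.05, adjusted p = 1.44e-31), and Col4a2 rose from 758 to 3058 CPM. Col13a1 fell from 34.4 to 8.23 CPM and Col18a1 fell from 347 to 182 CPM, so the direction was not shared by all. Among other matrix genes, Sparc, a collagen-binding protein, was at 1069, 1011 and 1078 CPM in the day 2 libraries and 3876, 3781 and 3808 CPM in the day 6 libraries (log2 1.86 ± 0.04, adjusted p = 3.24e-31). Serpinh1 (the collagen chaperone) rose from 607 to 1550.5 CPM, and P4ha1 (a collagen prolyl hydroxylase) rose from 101 to 382 CPM. Ecm1, of skin and vessel matrix, was at 2.2, 1.69 and 1.64 CPM in the day 2 libraries and 212, 216 and 206 CPM in the day 6 libraries, and Tnc (tenascin C) at 0.0758, 0.0804 and 0.182 CPM in the day 2 libraries and 8.3, 10 and 7.36 CPM in the day 6 libraries, and both are among the 12 largest rises. Fn1 (fibronectin) fell from 774 to 369.5 CPM and Spp1 (osteopontin) fell from 419.5 to 92.7 CPM. Basement membrane and integrin genes had 17 rises and 6 falls among 30 (median log2 0.44). Of 10 laminin chains tested, 6 rose, 1 fell and 3 missed the threshold (median log2 0.81), with Lama1 up from 416 to 1042 CPM and Lamc1 up from 1024 to 1952 CPM, while Itga6 (a laminin receptor subunit) fell from 135 to 66.8 CPM.

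The dish also held feeder fibroblasts, and several matrix genes are on their marker list. Of 15 such markers 10 were tested, of which 7 rose and 2 fell. Their summed level was 788 to 809 CPM at day 2 and 548 to 569 CPM at day 6, most of it Fn1, and without Fn1 it was 25.1 to 27.7 CPM at day 2 and 177 to 195 CPM at day 6. The 5 markers with too few counts to be tested were near 0. Dcn, Dpt, Fap, Lox and S100a4 together gave 0.273 to 0.909 CPM at day 2 and 1.05 to 1.68 CPM at day 6, with Dcn and Dpt at 0 counts at day 2 and S100a4 at 0 counts at day 6. Thy1 (a surface marker of fibroblasts) fell from 1.58 to 0.555 CPM. The part of the feeders in the matrix results was not tested beyond these values.

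Mesenchymal and mesoderm genes rose with the matrix. Of 33 mesoderm transcription factors, 21 rose, 5 fell and 7 missed the threshold (median log2 0.89), and of 21 mesenchymal genes, 14 rose, 5 fell and 2 missed the threshold (median log2 0.90). Fendrr, a long noncoding RNA gene next to Foxf1 on chromosome 8 that acts in lateral mesoderm, had no count at day 2 and 5.46, 5.72 and 5.57 CPM in the day 6 libraries. It was at least 68-fold higher, set against a floor of 3 counts over the day's libraries. Foxf1 itself was at 0.606, 0.884 and 1.09 CPM in the day 2 libraries and 23.8, 20.1 and 20.7 CPM in the day 6 libraries (log2 4.66 ± 0.18, adjusted p = 9.33e-24). Strand was not stated for the counting, so reads of neighbouring or overlapping genes may be shared. Osr1, of early kidney and gut mesoderm, was at 0.227, 0.161 and 0.0909 CPM in the day 2 libraries and 14.5, 12.9 and 12.5 CPM in the day 6 libraries (log2 6.25 ± 0.26, adjusted p = 4.66e-22), and Hand2, of limb and heart, rose from 0.923 to 11.4 CPM. The orphan nuclear receptor genes Nr2f1 and Nr2f2 rose from 2.47 to 56 CPM and from 18 to 84.1 CPM, and Twist1 rose from 13.2 to 39.2 CPM. Tbx2 rose from 4.35 to 36.7 CPM and Wt1 rose from 4.45 to 21.7 CPM. Tcf15 (a factor of somites that is also found in epiblast cells) fell from 26.1 to 3.32 CPM, and Msx1 fell from 7.66 to 3.52 CPM. In the mesenchymal list Cdh11 rose from 0.785 to 6.28 CPM, Axl (a receptor kinase) rose from 1.62 to 10.6 CPM and Snai2 rose from 1.29 to 5.76 CPM, whereas the intermediate filament gene Vim fell from 230.2 to 163 CPM and Nt5e (CD73) from 6.26 to 0.941 CPM. Cd248, a pericyte and stromal marker, was among the largest rises, at 0.152, 0 and 0.182 CPM in the day 2 libraries and 9.43, 7.02 and 7.15 CPM in the day 6 libraries (log2 6.04 ± 0.39, adjusted p = 1.20e-15).

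Epithelial genes rose as well. Among 26 tested, 17 rose, 3 fell and 6 missed the threshold (median log2 0.64). The keratin gene Krt19 was at 13.1, 11.5 and 12.3 CPM in the day 2 libraries and 146, 129 and 136 CPM in the day 6 libraries (log2 3.48 ± 0.07, adjusted p = 1.46e-33) and Krt18 at 60.1, 56 and 53 CPM in the day 2 libraries and 291, 295 and 280.1 CPM in the day 6 libraries (log2 2.35 ± 0.05, adjusted p = 3.43e-32), with no overlap for either. Krt7 rose from 2.68 to 16.3 CPM and Cldn7 (a claudin) rose from 10.1 to 52 CPM, and Cdh1 (E-cadherin) fell by 0.11 on the log2 scale, from 249 to 231 CPM, with libraries of the days that overlapped. That call was lost without day 2 replicate 1 or 3 (adjusted p = 0.0871 and 0.194) or day 6 replicate 2 or 3 (adjusted p = 0.157 and 0.0824).

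Genes of the extraembryonic endoderm, the layer that feeds the early embryo, rose in most cases. Of 18 regulators and receptors, 14 rose, 3 fell and 1 missed the threshold (median log2 0.59). The transcription factors Gata4, Sox17 and Foxa2 rose from 14.3 to 35.3 CPM, from 19.9 to 50.2 CPM and from 11.1 to 30.6 CPM. The endocytic receptor Lrp2 and its partner Dab2 differed less, in that Lrp2 fell from 152 to 123 CPM and Dab2 was at 367 and 365 CPM (adjusted p = 0.861). Amn (which anchors the receptor cubilin) fell from 31.3 to 11.9 CPM and Cubn rose from 191 to 235 CPM. Of 20 secreted proteins of visceral endoderm and liver, 12 rose, 5 fell and 3 missed the threshold (median log2 1.92). The difference between the 2 lists was not tested. Apoa1, the main protein of high-density lipoprotein, was at 7.5, 5.47 and 6.27 CPM in the day 2 libraries and 92.4, 83.5 and 99.4 CPM in the day 6 libraries (log2 3.83 ± 0.09, adjusted p = 4.45e-31), and Clu (clusterin) at 28.4, 29 and 31.5 CPM in the day 2 libraries and 373, 374 and 380.1 CPM in the day 6 libraries (log2 3.67 ± 0.05, adjusted p = 2.81e-38). Ttr (transthyretin) rose from 6.95 to 46.5 CPM, Afp (alpha-fetoprotein) rose from 3.38 to 16.4 CPM, Rbp4 rose from 13.8 to 71.1 CPM, Ambp rose from 0.134 to 7.99 CPM and Apoa4 rose from 2.22 to 25.4 CPM. The 3 fibrinogen chains rose together, Fgb from 6.37 to 40.7 CPM, Fgg from 0.530 to 5.38 CPM and Fga from 0.230 to 1.8 CPM. By contrast, Apoe (made by many cell types) fell from 950.1 to 501 CPM and Trf (transferrin) fell from 20.2 to 11.7 CPM.

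**Figure D3:**
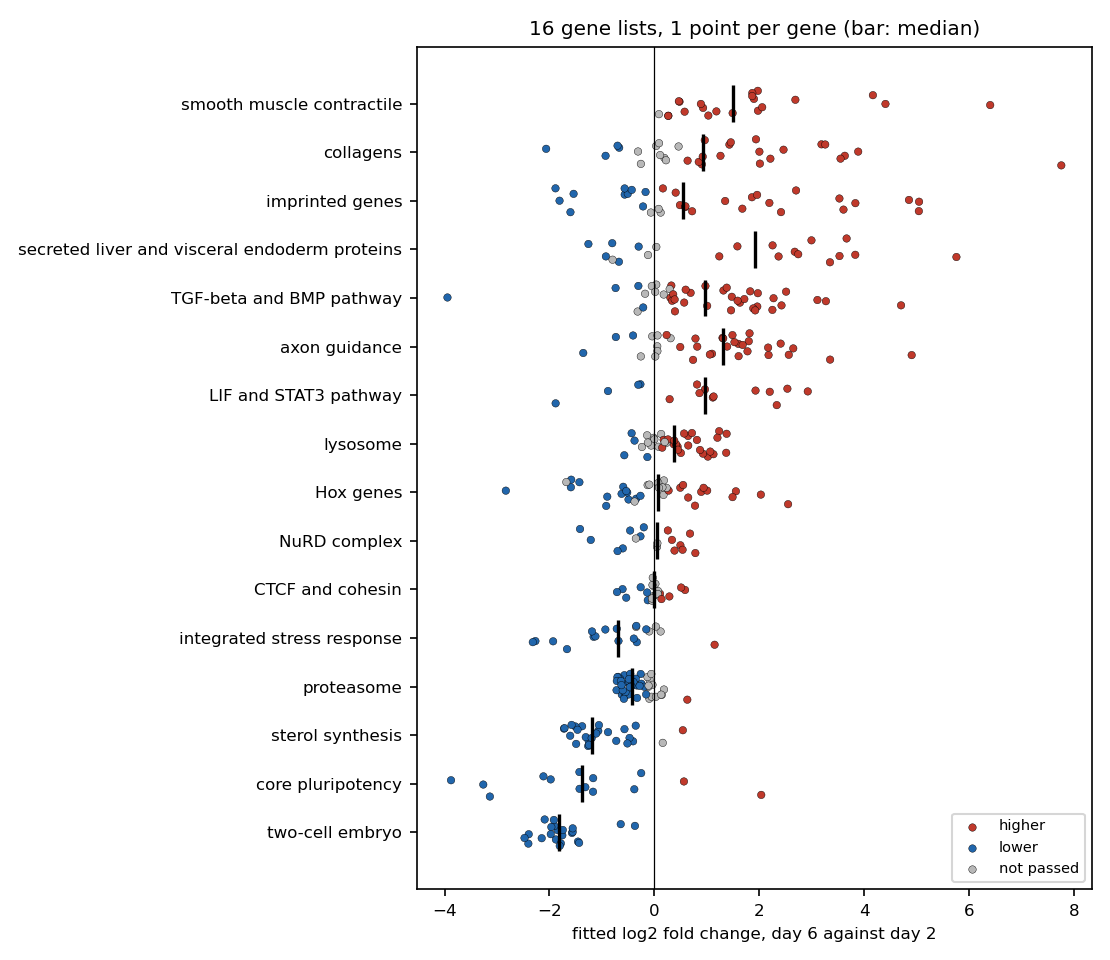
Fitted log2 fold change of day 6 against day 2 (x axis) for each tested member of 16 gene lists, 1 point per gene, with red for higher, blue for lower and grey for not passed; the black bar is the list's median. All 22 two-cell genes lay below 0, 20 of 21 smooth muscle genes were higher, and the Hox, NuRD and CTCF lists spread to both sides.

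Imprinted genes, of which only the copy from 1 parent is active and many of which control fetal growth, held some of the widest rises at high level. Of 32 tested, 19 rose, 10 fell and 3 missed the threshold (median log2 0.54). Igf2 (ENSMUSG00000048583.16, chromosome 7, 142650766 to 142666816), the fetal growth factor, was at 29, 28.9 and 28.8 CPM in the day 2 libraries and 922, 1002 and 947 CPM in the day 6 libraries (log2 5.05 ± 0.05, adjusted p = 3.39e-42), 33.1-fold higher. The gene model Gm49394 overlaps it, and reads may be shared. H19, the noncoding RNA gene beside it, was at 28, 26.6 and 28.6 CPM in the day 2 libraries and 391, 384 and 409 CPM in the day 6 libraries (log2 3.83 ± 0.05, adjusted p = 2.81e-38). Plagl1 (Zac1), a zinc finger factor, was at 25.7, 28.9 and 27.5 CPM in the day 2 libraries and 778, 827 and 769 CPM in the day 6 libraries (log2 4.86 ± 0.14, adjusted p = 8.20e-10), and no library of 1 day came near the other. All 5 genes tested from the Dlk1-Meg3 domain rose: Dlk1, a membrane ligand, from 18.5 to 225 CPM, Rtl1 from 0.155 to 5.82 CPM, and the noncoding Meg3, Rian and Mirg from 153 to 996 CPM, from 407 to 1301 CPM and from 11.6 to 44.8 CPM. The cyclin-dependent kinase inhibitor gene Cdkn1c was at 5.0, 5.31 and 3.91 CPM in the day 2 libraries and 51.6, 58.4 and 56.3 CPM in the day 6 libraries (log2 3.53 ± 0.10, adjusted p = 1.80e-28), and Peg3, also among the largest gains in CPM, rose from 479.7 to 2195 CPM. Grb10, an inhibitor of insulin-type receptors, fell from 22.1 to 6.35 CPM and Nap1l5 from 23.7 to 8.07 CPM, while Mest was at 318 and 303 CPM (adjusted p = 0.257). Genes of the IGF axis had 10 rises and 2 falls among 16 (median log2 0.64). The binding protein gene Igfbp5 was at 5.46, 4.98 and 5.64 CPM in the day 2 libraries and 79.3, 86.4 and 78.2 CPM in the day 6 libraries (log2 3.92 ± 0.09, adjusted p = 1.44e-31) and Igfbp2 went the other way, at 458, 442 and 467 CPM in the day 2 libraries and 111, 117 and 116 CPM in the day 6 libraries (log2 -2.0 ± 0.05, adjusted p = 1.90e-31). Irs1, an adaptor of the receptors, rose from 1.75 to 9.46 CPM, and the receptor gene Igf1r was at 26.6 and 29.9 CPM (adjusted p = 0.0749). Of 17 genes of Lin28 and let-7, 7 rose, 5 fell and 5 missed the threshold (median log2 0.11). With day 2 replicate 2 left out, 6 rose and 7 fell. With all libraries 41.2% rose and 29.4% fell, against 32.4% and 31.2% of all genes.

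The Hox genes moved both ways. Over 35 tested, 12 rose, 13 fell and 10 missed the threshold (median log2 0.08), close to the shares of all genes. In HoxB, 2 rose, 7 fell and 1 missed the threshold (median log2 -0.91) of 10, and in HoxD, 4 rose, none fell and 2 missed the threshold (median log2 1.17) of 6. HoxA gave 3 rises and 5 falls in 11 genes, and HoxC 3 and 1 in 8. Hoxb1, of the hindbrain, was at 27.7, 28.1 and 25.1 CPM in the day 2 libraries and 4.71, 3.24 and 3.05 CPM in the day 6 libraries (log2 -2.83 ± 0.13, adjusted p = 7.74e-21), and it remained above its day 0 level of 0.0799 CPM. Hoxb2 fell from 59.9 to 19.8 CPM, Hoxb6 fell from 132 to 43.9 CPM and Hoxb8 fell from 112 to 41.5 CPM. Hoxd3 was at 0.606, 0.723 and 0.546 CPM in the day 2 libraries and 3.59, 3.78 and 3.89 CPM in the day 6 libraries (log2 2.55 ± 0.28, adjusted p = 3.57e-10), Hoxd4 rose from 1.82 to 7.42 CPM, Hoxc6 rose from 4.37 to 12.1 CPM and Hoxc9 rose from 9.18 to 18.6 CPM. Neighbouring Hox genes and their antisense transcripts overlap, so reads may be shared among them. The cofactors of Hox proteins had 6 rises and 3 falls among 11 (median log2 0.42), and Meis1 rose from 39.6 to 106 CPM.

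Retinoic acid genes moved both ways. Of 22 tested, 10 rose (45.5%), 9 fell (40.9%) and 3 missed the threshold (median log2 -0.08). Over all genes 32.4% rose and 31.2% fell. The synthesis enzyme gene Aldh1a2 was at 2.88, 2.81 and 2.64 CPM in the day 2 libraries and 25.5, 24.7 and 27 CPM in the day 6 libraries (log2 3.2 ± 0.12, adjusted p = 1.20e-24), Aldh1a1 rose from 8.04 to 28.9 CPM, and Rdh10 (which makes the precursor) rose from 8.7 to 23 CPM. Of the degrading enzymes, Cyp26b1 rose from 161 to 407 CPM and Cyp26a1 fell by 0.29 on the log2 scale, from 728 to 596 CPM. The intracellular carriers moved apart, in that Crabp2 fell from 368 to 113 CPM and Crabp1 rose from 6.14 to 26 CPM. Among receptors Rarb rose from 64.6 to 157 CPM and Rarg fell from 62.6 to 25.5 CPM. Stra8 (ENSMUSG00000029848.11, chromosome 6, 34920163 to 34939344), a retinoic acid target needed to enter meiosis, was at 2941, 3036 and 2999.5 CPM in the day 2 libraries and 532, 570.2 and 516 CPM in the day 6 libraries (log2 -2.47 ± 0.05, adjusted p = 5.44e-34), the second largest loss in CPM of called genes without a clone-type name. It was still above its day 0 level of 177 CPM (log2 1.6 ± 0.05 against day 0, adjusted p = 1.37e-27).

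Meiosis genes split. Of 33 meiosis and germline genes, 16 rose, 8 fell and 9 missed the threshold (median log2 0.18). Sycp2 (of the chromosome axis) rose from 9.58 to 29.1 CPM, Smc1b (a meiotic cohesin) rose from 34.2 to 77.7 CPM, and Hormad2 rose from 13.8 to 34.8 CPM, while Sycp1 and Sycp3 were at 72.1 and 69.8 CPM (adjusted p = 0.510) and 32.9 and 32.7 CPM (adjusted p = 0.971). Rec8 (another meiotic cohesin) fell from 87.7 to 44.1 CPM, and Meioc (a partner of meiotic entry) fell from 135 to 78.1 CPM. Dmrt1, of the testis, was among the 12 largest falls, from 35.8 to 4.0 CPM. Rhox5, an X-linked homeobox gene, rose from 184 to 546 CPM.

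Genes of the two-cell embryo fell without exception among those tested. Of 22, none rose and 22 fell (median log2 -1.82). The list's median log2 for day 6 against day 0 was 1.30, so its median member stayed above the day 0 level. Zscan4d was at 81, 82.9 and 73.4 CPM in the day 2 libraries and 26.6, 26.9 and 26.5 CPM in the day 6 libraries (log2 -1.57 ± 0.06, adjusted p = 1.04e-23), Usp17le fell from 50.6 to 17.3 CPM and Gm8300 from 45.7 to 10.3 CPM. All 6 Zscan4 genes tested fell, with log2 values from -1.46 to -1.97. Near-identical copies share reads among these genes, so single members are uncertain. Duxf3, of the factor family that switches these genes on, had the smallest fall, from 6.35 to 4.88 CPM, and its libraries overlapped between days. Its call was lost without day 2 replicate 2 or 3 (adjusted p = 0.220 and 0.115) or day 6 replicate 1 or 3 (adjusted p = 0.0933 and 0.193), and with the replicate block (adjusted p = 0.0557).

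The timing of each change was asked with the step difference, the log2 change from day 4 to day 6 less that from day 2 to day 4. On the log2 scale it is negative for a rise that came mostly before day 4 or a fall that came mostly after it, and it was called in 5613 genes (34.1%), 2813 positive (17.1%) and 2800 negative (17%). For the two-cell genes it was negative in 20 of 22 and positive in none. Zscan4d, at 106 CPM at day 4, had a step difference of -2.41 ± 0.09 (adjusted p = 5.75e-22), so its fall came after day 4. Stat3 had a positive value, 0.28 ± 0.09 (adjusted p = 0.0148), with more of its rise in the last 2 days. Acta2 had -2.95 ± 0.27 (adjusted p = 2.22e-11) and Plagl1 -2.93 ± 0.20 (adjusted p = 3.71e-06), with more of it in the first 2. Nepn, a proteoglycan gene, had -6.4 ± 0.33 (adjusted p = 2.44e-18) and peaked at day 4 with 13.4 CPM. Foxc2, a mesoderm factor, and Spon1, of the matrix, rose from 0.361 to 11.4 CPM and from 1.17 to 12.2 CPM but stood at 11.2 CPM and 12.9 CPM already at day 4. A large positive value came from Nphs1, with no count at day 4 and 0.168 and 0.125 CPM (adjusted p = 0.947) at days 2 and 6. Leaving out day 2 replicate 1 or 3 or day 6 replicate 1, or fitting the replicate block, ended the step call of Nphs1. The pseudogene Rps12-ps4 had 2.38 ± 0.26 (adjusted p = 9.01e-08), and its reads may be shared with Rps12.

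**Figure D4:**
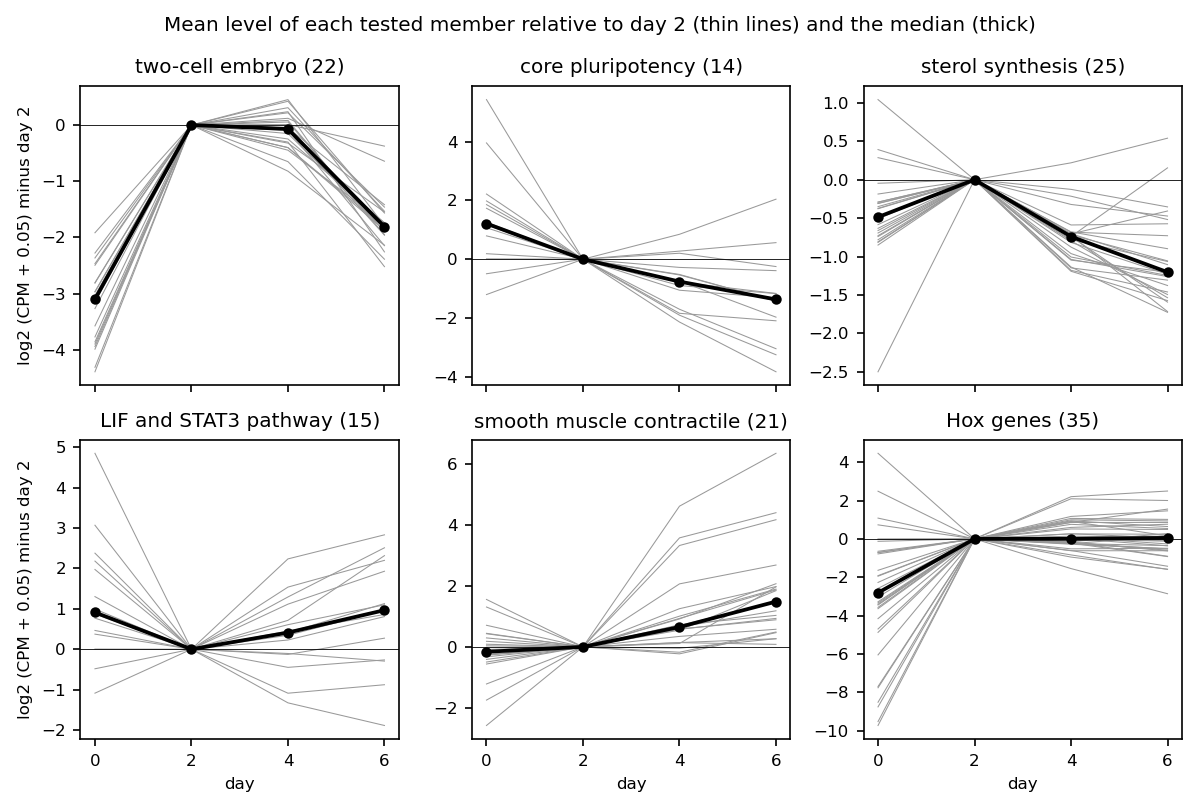
Mean level of each tested member of 6 gene lists at days 0, 2, 4 and 6, as log2 (CPM + 0.05) relative to day 2 (thin grey lines), with the list's median (thick black line). The two-cell median stayed near its day 2 level until day 4 and then fell, the sterol and core pluripotency medians fell from day 2 to day 4 and from day 4 to day 6, and the LIF and smooth muscle medians rose in both of these intervals.

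Lipid synthesis fell. Of 25 sterol synthesis genes, 1 rose, 23 fell and 1 missed the threshold (median log2 -1.19). Hmgcs1, the enzyme that makes the precursor of the mevalonate pathway, was at 254, 259.6 and 241 CPM in the day 2 libraries and 88.3, 92.2 and 93.4 CPM in the day 6 libraries (log2 -1.46 ± 0.05, adjusted p = 1.32e-26), and its libraries did not overlap between days. Fdps fell from 59.2 to 17.9 CPM, Msmo1 fell from 93.8 to 28.5 CPM and Cyp51 fell from 214 to 102 CPM. Insig1, which holds the sterol sensor in the endoplasmic reticulum and is itself a known target of the sterol factors, was the 1 member that rose, at 82.9, 86.5 and 90.6 CPM in the day 2 libraries and 129, 123 and 126 CPM in the day 6 libraries (log2 0.54 ± 0.05, adjusted p = 1.23e-12). The step difference was positive in 14 and negative in 1 of the 25, so that more of the fall came before day 4 in the former. In fatty acid synthesis, 1 rose and 11 fell of 15 (median log2 -0.86), among them Fasn, from 193 to 106 CPM, Scd1, from 106 to 37.9 CPM, and Elovl6, from 168 to 43.2 CPM, and Me1 (which makes NADPH) rose from 90.4 to 134 CPM.

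The sterol factors of the SREBP family are known to act with NF-Y, which binds CCAAT. After the values were seen, CCAAT was searched on both strands and found in 16 of the 17 sterol gene promoters in the RefSeq table (94.1%), against 41.3% of tested genes and 33.8% of all promoters. TCACNCCAC, a form of the sterol element, was found in Hmgcs1 alone among these 17 (5.88%), against 1.26% of tested genes. The 3 promoters below are shown for an enzyme gene with both motifs, for the member that rose and for a typical member, with CCAAT (or ATTGG, its other strand) and TCACNCCAC in capitals. Tagln and Sqle were not matched to a promoter.
Hmgcs1 (chr13:119690101-119690350, plus strand): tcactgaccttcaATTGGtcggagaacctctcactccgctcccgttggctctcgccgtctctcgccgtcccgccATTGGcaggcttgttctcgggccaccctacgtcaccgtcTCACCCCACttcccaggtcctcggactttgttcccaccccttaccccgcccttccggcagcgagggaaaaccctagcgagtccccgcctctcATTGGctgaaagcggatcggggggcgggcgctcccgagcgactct
Insig1 (chr5:28071162-28071411, plus strand): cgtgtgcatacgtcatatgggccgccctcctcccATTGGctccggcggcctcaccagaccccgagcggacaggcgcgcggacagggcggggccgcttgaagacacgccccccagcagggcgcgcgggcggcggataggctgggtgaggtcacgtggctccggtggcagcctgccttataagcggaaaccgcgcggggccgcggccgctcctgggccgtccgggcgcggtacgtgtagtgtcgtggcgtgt
Cyp51 (chr5:4104698-4104947, minus strand): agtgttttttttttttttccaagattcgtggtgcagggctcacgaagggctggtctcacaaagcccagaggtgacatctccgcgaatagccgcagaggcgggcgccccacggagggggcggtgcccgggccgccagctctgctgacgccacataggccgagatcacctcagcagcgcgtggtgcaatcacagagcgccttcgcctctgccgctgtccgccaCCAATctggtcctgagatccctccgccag
Insig1, which rose, and Cyp51, which fell, each hold 1 CCAAT in this window, so its presence does not separate them.

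Most genes of the integrated stress response and of heat shock fell, and most folding genes of the endoplasmic reticulum (ER) rose. Of 19 gene models of the integrated stress response, the pathway that restrains translation and runs through Atf4, 1 rose, 14 fell and 4 missed the threshold (median log2 -0.68). The symbol Ddit3 stands on 2 gene models and is counted for both. Atf4 was at 232, 234 and 229 CPM in the day 2 libraries and 118, 128 and 119 CPM in the day 6 libraries (log2 -0.93 ± 0.04, adjusted p = 8.27e-21), Asns (asparagine synthetase) fell from 100.4 to 31.4 CPM, Trib3 from 13.8 to 3.63 CPM and Chac1 from 5.92 to 1.25 CPM. Heat shock genes had 4 rises and 12 falls among 20 (median log2 -0.27). Hsp90ab1, a cytosolic chaperone, had the largest loss in CPM of called genes without a clone-type name. It was at 8300.3, 8557 and 8069 CPM in the day 2 libraries and 5681, 6078 and 5654 CPM in the day 6 libraries (log2 -0.52 ± 0.05, adjusted p = 2.43e-12). Hsp90aa1 fell from 2692 to 1504 CPM and Hspb1 from 114 to 37.6 CPM. ER folding genes instead had 14 rises and 3 falls among 20 (median log2 0.27), with the ER chaperone Hsp90b1 up from 1553 to 2148 CPM, Pdia6 from 672 to 992 CPM and Xbp1, a factor of the unfolded protein response, from 80.1 to 128 CPM. Lysosomal genes had 23 rises and 4 falls among 37 (median log2 0.38). Ctsb (cathepsin B) rose from 78.9 to 181 CPM, Lamp2 rose from 63.8 to 165 CPM and Hexa rose from 56.7 to 148 CPM, while Atp6v0d1 (of the proton pump) fell from 77.7 to 52.1 CPM.

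Genes of translation, proteolysis and respiration fell by small amounts in large numbers. Cytosolic ribosomal protein genes, paralogs included, had 74 falls and 1 rise among 84 (median log2 -0.36). Rps25 had the widest fall of the core subunits, at 726, 875 and 840.3 CPM in the day 2 libraries and 280.1, 259 and 288 CPM in the day 6 libraries (log2 -1.56 ± 0.07, adjusted p = 9.83e-13), and Rpl17 and Rps24 were among the 8 largest losses in CPM, from 2061 to 1162 CPM and from 3115 to 2434 CPM. The 1 that rose was a paralog, in that Rpl39l rose from 12.4 to 17.6 CPM. Eef1a1, an elongation factor, fell from 6892 to 5534 CPM and Ybx1, an RNA-binding protein, from 4406 to 3012 CPM. Mitochondrial ribosomal proteins had 45 falls and 1 rise among 78 (median log2 -0.24), the nuclear-encoded respiratory chain had 55 falls and 3 rises among 76 (median log2 -0.27), and the proteasome had 33 falls and 1 rise among 46 (median log2 -0.43). Psmc4 fell from 169 to 103 CPM, and the member that rose was Psmb8, of the immunoproteasome, from 2.94 to 4.58 CPM. Mitochondrially encoded genes did not share this fall, with 5 up, 1 down and 7 not passed of 13 (median log2 0.27). The share that rose, 38.5%, was near the 32.4% of all genes, and 7.69% fell, against 31.2% of all genes. mt-Co1, a subunit of cytochrome oxidase and among the largest gains in CPM, was at 2707, 2779 and 2779 CPM in the day 2 libraries and 7154, 7137 and 7258 CPM in the day 6 libraries (log2 1.38 ± 0.04, adjusted p = 3.57e-26).

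Growth genes fell too. Myc and nucleolar genes had 22 falls and 3 rises among 28 (median log2 -0.35). Dkc1, of ribosomal RNA processing, fell from 319.5 to 189 CPM and Gnl3 from 348 to 241 CPM. Mycn was 1 of the 3 that rose, at 38.7, 42.8 and 44.5 CPM in the day 2 libraries and 109, 114 and 118 CPM in the day 6 libraries (log2 1.44 ± 0.05, adjusted p = 5.60e-24). Myc itself also rose (log2 0.64, adjusted p = 0.00756), and its call was lost without day 2 replicate 3 (adjusted p = 0.0502). DNA replication genes had 25 falls and 2 rises among 32 (median log2 -0.26) and mitosis genes had 20 falls and 2 rises among 30 (median log2 -0.27). Mcm2 fell from 371 to 261 CPM, Pcna fell from 223 to 162 CPM, Cdk1 fell from 399 to 236 CPM and Ccnb1 fell from 249 to 157 CPM. Mki67, the proliferation marker, was at 417 and 441 CPM (adjusted p = 0.103). Of 22 genes of G1 control, 9 rose, 4 fell and 9 missed the threshold (median log2 0.09). In this list 40.9% rose and 18.2% fell, against 32.4% and 31.2% of all genes. Ccnd2 (cyclin D2) rose from 25.3 to 96.8 CPM and the inhibitor Cdkn2b from 5.84 to 18.2 CPM. p53 targets were even and close to the shares of all genes, with 9 up and 9 down of 27 (33.3% each, median log2 -0.01). Cdkn1a rose from 29.7 to 37.1 CPM.

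Most genes of the TGF-beta and BMP pathway rose. Of 41 genes, 30 rose, 4 fell and 7 missed the threshold (median log2 0.97). The ligand genes Tgfb2 and Tgfb3 rose from 0.875 to 8.77 CPM and from 3.14 to 27.3 CPM, but Inhbb (an activin subunit) fell from 4.0 to 0.242 CPM. Bmp5 rose from 0.0824 to 2.4 CPM, and with a day 2 level near 0 the size of its rise is uncertain. Among receptors Tgfbr2 rose from 6.39 to 17.5 CPM and Tgfbr3 rose from 9.89 to 53.2 CPM, and Bmpr1a was at 157 and 152 CPM (adjusted p = 0.349). All 4 Id genes, textbook BMP targets, rose, and Id1 was at 28.3, 27 and 33.4 CPM in the day 2 libraries and 141, 118 and 161 CPM in the day 6 libraries (log2 2.25 ± 0.14, adjusted p = 4.73e-07) and Id3 at 6.52, 4.5 and 4.73 CPM in the day 2 libraries and 32.5, 29.2 and 28.5 CPM in the day 6 libraries (log2 2.51 ± 0.11, adjusted p = 2.19e-21). Neither Id1 nor Id3 overlapped between days. Wnt genes had 19 rises (43.2%) and 15 falls (34.1%) among 44 (median log2 0.07), against 32.4% and 31.2% of all genes. The inhibitor Frzb and the ligand Wnt5a rose from 1.13 to 26.2 CPM and from 2.19 to 22.5 CPM, while Cdx1 and T, both targets, fell from 6.93 to 0.773 CPM and from 0.525 to 0.120 CPM. FGF and ERK genes had 10 rises and 12 falls among 30 (median log2 -0.14). These shares were 33.3% and 40%, against 32.4% and 31.2% of all genes. The feedback and target genes Etv4, Etv5, Spry4 and Dusp6 fell from 6.21 to 1.19 CPM, from 21.5 to 3.41 CPM, from 3.97 to 0.811 CPM and from 53.9 to 15.9 CPM. The immediate early genes Egr1 and Fos rose from 2.79 to 13.1 CPM and from 1.71 to 6.23 CPM, and the receptors split, with Fgfr1 falling from 142 to 65.5 CPM and Fgfr3 rising from 2.92 to 16.5 CPM. Notch and Hedgehog genes had 13 rises and 6 falls among 24 (median log2 0.22), with Gas1, a Hedgehog co-receptor, up from 47.7 to 127 CPM.

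More neural genes rose than fell. Neural progenitor genes had 15 rises and 6 falls among 25 (median log2 0.46), neuronal genes 17 and 2 among 24 (median log2 1.11) and axon guidance genes 25 and 3 among 35 (median log2 1.3). Dcx (doublecortin), of migrating neurons, had 3 counts over the day 2 libraries and was at 5.91, 6.05 and 5.68 CPM in the day 6 libraries, which gives a day 6 to day 2 ratio of CPM of 71.8 (24.2 to 351, 95% interval from counting). The proneural gene Neurog2 had 3 counts at day 2 and was at a ratio of 39.1 (13 to 193, 95% interval from counting). Pou3f2 rose from 0.545 to 7.83 CPM, Nefm (a neurofilament) rose from 6.28 to 30 CPM, Robo2 (a guidance receptor) rose from 1.29 to 13.3 CPM and Unc5c (another) rose from 0.291 to 9.36 CPM. The early neural genes Sox1 and Sox2 fell, Sox1 at 22.1, 23.6 and 24.2 CPM in the day 2 libraries and 5.09, 5.29 and 5.15 CPM in the day 6 libraries (log2 -2.17 ± 0.11, adjusted p = 6.20e-20). Stmn2, a neuronal gene, fell from 29.4 to 6.28 CPM. Neural crest genes had 5 rises and 1 fall among 13, and 7 missed the threshold (median log2 0.39), with Sox10 and Tfap2b not tested. Their share of rises, 38.5%, was near the 32.4% of all genes, and 7.69% fell, against 31.2%.

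Of the chromatin complexes named in the series title, NuRD had subunits that rose and subunits that fell. The 17 genes of the complex gave 7 rises and 7 falls, with a median log2 value of 0.05. That is 41.2% each way, where 32.4% of all genes rose and 31.2% fell. Hdac1 (ENSMUSG00000028800.15, chromosome 4, 129516104 to 129542713), 1 of its deacetylases, was at 171, 176 and 177 CPM in the day 2 libraries and 75.4, 79.7 and 70.8 CPM in the day 6 libraries (log2 -1.21 ± 0.05, adjusted p = 1.49e-22), and its paralog Hdac2 at 381, 402 and 379.7 CPM in the day 2 libraries and 454, 464 and 472 CPM in the day 6 libraries (log2 0.26 ± 0.07, adjusted p = 0.00226), so they moved in opposite directions. The paralogs Mbd3 and Mbd2, of which 1 or the other is in a complex, did likewise, in that Mbd3 fell from 205 to 178 CPM and Mbd2 rose from 56.7 to 97.2 CPM. Of the histone-binding pair, Rbbp4 fell from 255 to 169 CPM and Rbbp7 rose from 619 to 993 CPM. Mta1 rose from 216 to 273 CPM, Mta2 rose from 247 to 359 CPM and Mta3 fell from 244 to 177 CPM. The ATPase gene Chd4 was at 877, 941 and 861 CPM in the day 2 libraries and 912, 957 and 919.5 CPM in the day 6 libraries (log2 0.06 ± 0.04, adjusted p = 0.262), Chd3 rose from 90.8 to 119 CPM and Chd5 fell from 20.8 to 7.84 CPM. CTCF and cohesin genes had 5 rises and 6 falls among 21 (median log2 -0.01). These shares, 23.8% and 28.6%, were below the 32.4% and 31.2% of all genes. Ctcf was at 229, 236 and 222 CPM in the day 2 libraries and 188, 192 and 194 CPM in the day 6 libraries (log2 -0.26 ± 0.04, adjusted p = 2.04e-06), the cohesin ring genes Rad21 and Smc3 fell from 966 to 635 CPM and from 515 to 355 CPM, and Smc1a rose from 441 to 485 CPM. The call of Smc1a was lost without day 2 replicate 3 (adjusted p = 0.0616). The loader gene Nipbl was at 164 and 159 CPM (adjusted p = 0.397).

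Of the other chromatin lists, DNA methylation genes had 9 falls and 4 rises among 15 (median log2 -0.39), with Dnmt3a falling from 352 to 185 CPM and Dnmt1 at 599.6 and 641 CPM (adjusted p = 0.0733). Genes of heterochromatin and retroelement silencing had 14 falls and 4 rises among 23 (median log2 -0.20), with Cbx3 (HP1 gamma) falling from 144 to 71.9 CPM and Trim28 from 288 to 199.9 CPM. PRC2 genes had 6 falls and 2 rises among 10 (median log2 -0.15), with Jarid2 falling from 390.5 to 216 CPM. PRC1 genes had 8 rises and 5 falls among 24 (median log2 0.12). These shares were 33.3% and 20.8%, against 32.4% and 31.2% of all genes. BAF genes had 13 rises and 7 falls among 26 (median log2 0.11), and the ATPase Smarca2 rose from 77.8 to 139.5 CPM while its paralog Smarca4 was at 331 and 314 CPM (adjusted p = 0.107).

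**Figure D5:**
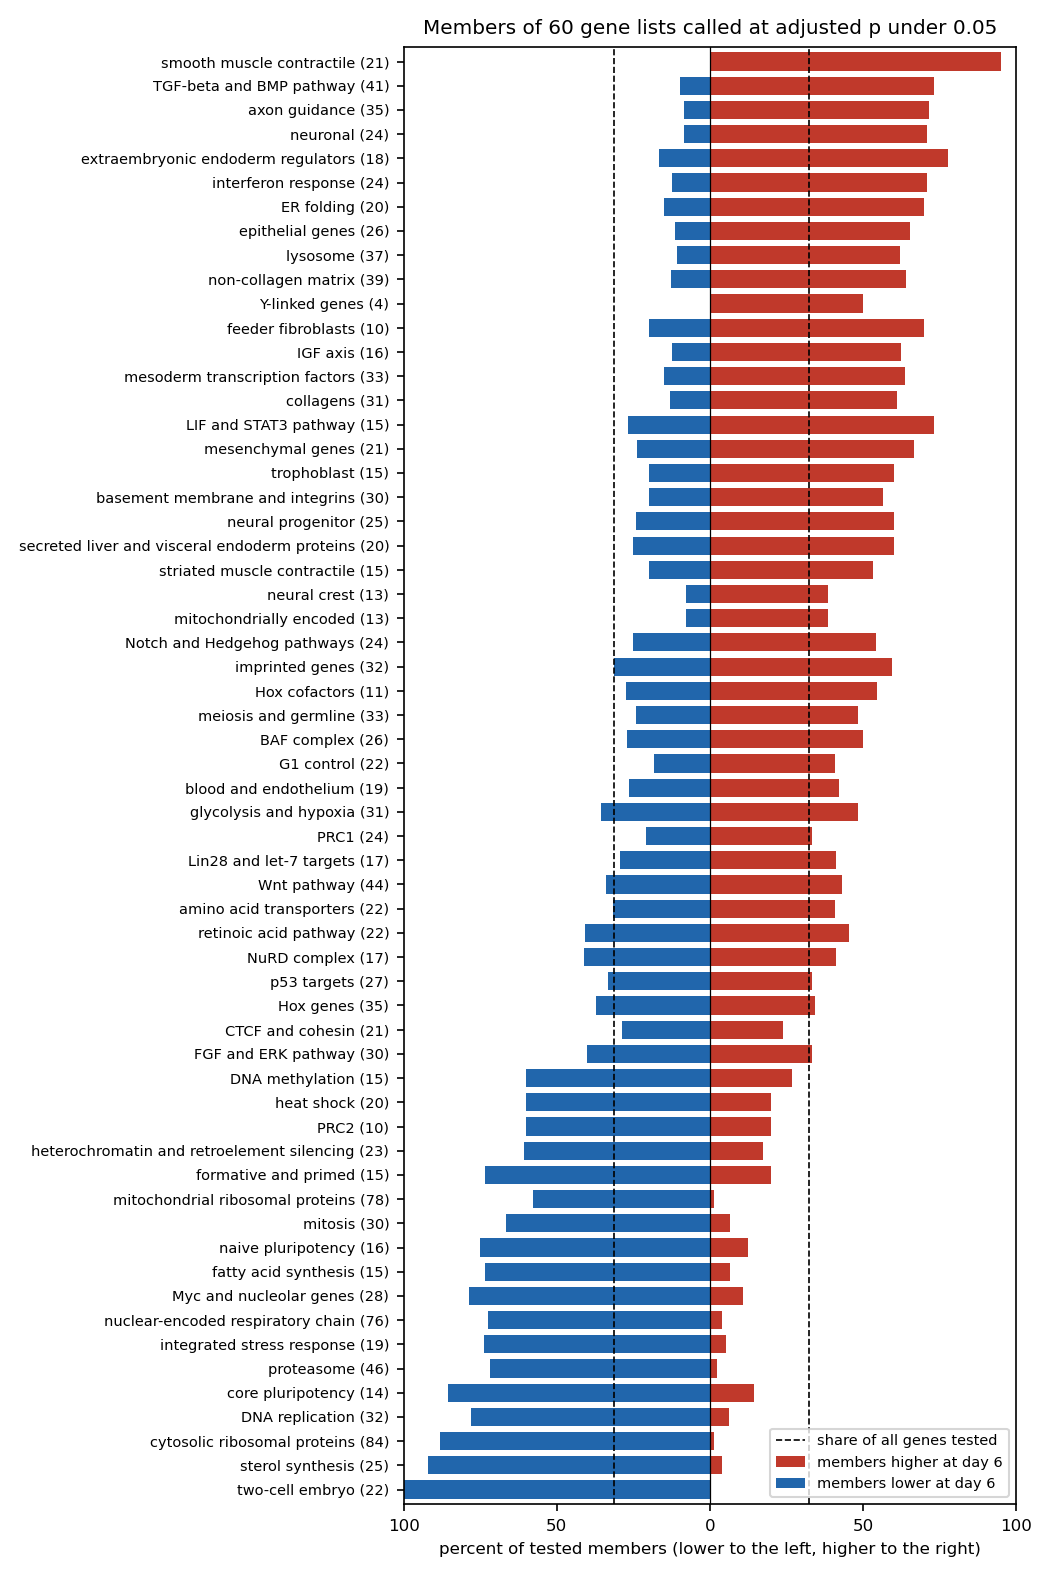
Percent of tested members called higher (red, to the right) or lower (blue, to the left) at day 6 for each of 60 gene lists, with the number tested in parentheses; dashed lines mark the shares of all genes, 32.4% higher and 31.2% lower. Two-cell, sterol and ribosomal protein lists lie at the lower end and smooth muscle, TGF-beta and axon guidance lists at the upper end.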

How the data were processed

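RNA-seq of polyA RNA from 12 libraries, 3 for each of days 0, 2, 4 and 6, was deposited by the authors as 1 table of counts per gene. HISAT2 2.1.0, FastQC 0.11.7, DESeq2 and featureCounts 2.0.1 were used with build mm10, per the submitters' processing notes; the settings and strand are not given in the sources used here. Gene positions came from GENCODE M21, which matched 55154 of the 55335 gene IDs, and promoters from RefSeq (GRCm38.p6).

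Counts were fitted with edgeR 4.0.16 (R 4.3.3), robust quasi-likelihood, TMM factors, filterByExpr by day and a coefficient per day over all 12 libraries; adjusted p-values are Benjamini-Hochberg over the 16468 genes tested. Total counts were 6945900 to 13266962 a library. On simulated counts for 16468 genes of this comparison, 50 genes were changed at each of 1.25, 1.5, 2 and 4-fold. Of these 52, 58, 86 and 98% were called, and 14 of 15845 unchanged genes. With so few changed genes the adjustment is stricter than in the data, where 63.6% were called. The percents are therefore not the share of such changes found in the data.

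The members and the 60 gene lists were chosen with earlier results of these data known, so no list has a test of its own. Named genes were the 12 largest rises and falls of at least 5 CPM, the 8 largest gains and losses in CPM, the 4 largest step differences each way among called genes with at least 10 CPM in the highest day, the members of lowest p in each list (4 at most), and 12 set genes; models with clone-type names were passed over, and a few genes the rule names are not reported here. Other members were named after their values were seen, to show both directions of a list or a member's role. Alternatives were DESeq2 1.42.0, limma-voom (limma 3.58.1), other scalings, filters and thresholds, the replicate number as a block, the 6 libraries alone, and each library left out.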

Additional observations from a re-analysis of the deposited data

How the results depend on the processing

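Counts of genes changed between days 2 and 6 stayed within 1.5 times of the values given under all 17 alternatives. Genes higher at day 6 ran from 4619 to 5530 and genes lower from 4315 to 5484, with 4964 to 5177 and 4772 to 5176 when 1 library was left out. Library size alone gave 5077 higher and 5473 lower. DESeq2 gave 4780 and 4493. Genes at least 2-fold higher ran from 1558 to 2109, those lower from 1050 to 1497. Step calls, refitted under 11 of the alternatives, ran from 5278 to 5619. Same-numbered libraries of days 2 and 6 showed no shared deviation (r = -0.00, 0.00 and -0.02), and different-numbered ones gave r from -0.02 to 0.02. With 3 libraries a day this cannot show whether the numbers mark shared cultures. The replicate block gave 5322 higher and 5134 lower. Of 282 named gene models called, 6 lost the call in at least 1 of the 17 (Cdh1, Duxf3, Klf4, Klf5, Myc and Smc1a) and none reversed. Another 6 named genes, which missed the threshold in the main fit, passed it in at least 1 alternative. The step call changed in at least 1 refit for 32 named genes, and none reversed. DESeq2 ended the calls of Cdh1, Duxf3, Klf4 and Klf5 (adjusted p = 0.0700, 0.145, 0.106 and 0.108). Limma-voom and the fit to the 6 libraries alone ended those of Klf4 (0.0514 and 0.0641) and Duxf3 (0.0615 and 0.0597), and testing without a count filter that of Duxf3 (0.0555). Pfkl against day 0 turned to 0.0113 with library size alone. Step values per gene, list counts per setting, the changed CArG form, CCAAT and TCACNCCAC were added after seeing the data. Low depth limits genes near 0. A change of 1.5-fold was called in 58% of simulated cases, but few genes were changed there, so the share found in these data may differ.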

Other observations

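Interferon response genes, which mark antiviral signalling, had 17 rises and 3 falls among 24 (median log2 0.63). Ifitm3 rose from 11.6 to 41 CPM, H2-D1 (a major histocompatibility gene) rose from 38.4 to 84.5 CPM, and B2m (its partner chain) rose from 43.6 to 71.8 CPM. Glycolysis and hypoxia genes had 15 rises (48.4%) and 11 falls (35.5%) among 31 (median log2 0.13), against 32.4% and 31.2% of all genes. Ldha rose from 338 to 559 CPM, Pfkl rose from 159.6 to 325 CPM and Slc2a1 (the glucose transporter) fell from 261 to 180.4 CPM. Amino acid transporters had 9 rises (40.9%) and 7 falls (31.8%) among 22 (median log2 0.12), near the 32.4% and 31.2% of all genes. Slc7a5 (a transporter of large neutral amino acids) fell from 115 to 37.8 CPM, Slc1a5 fell from 31.2 to 10.8 CPM and Slc1a4 rose from 11 to 22.6 CPM.

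Trophoblast genes had 9 rises and 3 falls among 15 (median log2 0.89). Their median log2 for day 6 against day 0 was -0.33. Of the 21 genes written for this list, Ascl2, Elf5, Prl2c2, Prl3d1, Psg17 and Tpbpa were not tested. Gata3 rose from 2.87 to 18.7 CPM, Plet1 rose from 8.99 to 89.8 CPM, Cdx2 rose from 0.450 to 2.67 CPM and Eomes fell from 19 to 9.79 CPM. Blood and endothelium genes had 8 rises (42.1%) and 5 falls (26.3%) among 19 (median log2 0.08), against 32.4% and 31.2% of all genes. Of the endothelial genes Kdr rose from 10.1 to 21.5 CPM and Cdh5 rose from 2.72 to 9.24 CPM, while Tal1 (of early blood) fell from 2.49 to 0.833 CPM and Pecam1 (which ES cells also express) fell from 149 to 53.8 CPM. Of 4 Y-linked genes tested, 2 rose, none fell and 2 missed the threshold (median log2 0.21), and Kdm5d rose from 4.52 to 8.64 CPM. Further genes among the 12 largest rises were Aqp1, a water channel, from 0.286 to 36.1 CPM, and Ugt2b34, a glucuronosyltransferase, from 0.863 to 64 CPM. Further large falls were Cacng6 from 9.72 to 0.373 CPM, Tll1, an astacin protease, from 21.5 to 1.53 CPM, Cyp11a1, of steroid synthesis, from 6.36 to 0.561 CPM, Trh, a hypothalamic hormone, from 9.23 to 0.918 CPM, Kcnj12, a potassium channel, from 5.79 to 0.573 CPM, Aard from 155 to 16.2 CPM and Pcolce2, of collagen processing, from 6.14 to 0.641 CPM. Gains and losses in CPM also included Gpx3, a secreted peroxidase, which rose from 199.9 to 1706 CPM, and Mdk (midkine), which fell from 2944 to 1455 CPM after standing at 298 CPM at day 0.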
